A study of Homo sapiens and Mus musculus with 100 samples.

Results

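HepG2 cells, an established line from a human liver tumour that still expresses hepatocyte genes, were sampled on 4 days with vitamin B2 present. The libraries described are the 12 labelled as controls in the HepG2 time course, chosen by their labels out of 100 samples in the series: 3 libraries each of Day3_Cont, the earliest day, Day6_Cont, Day9_Cont and Day12_Cont. The series follows cells and mice deprived of vitamin B2, or riboflavin, from which the cofactors FMN and FAD are made, and asks what part AhR, a ligand-activated transcription factor, has in that response. In the same table stand 12 HepG2 libraries without vitamin B2 (B2_minus) on the same days. The control groups carry no transgene, knockout, inhibitor or added compound in their labels, and they are all of 1 cell line, so they represent that line and not liver tissue. What changed between the days besides time (medium changes, passage, cell density) is not given in the sources used here. Nothing says that the 3 libraries of a day came from separate cultures, so every p-value below measures the spread between libraries, which may be technical.

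Messenger RNA was read from its 3′ ends and is given as TPM (a length-scaled share of the reads), deposited by the authors. The 12 control libraries held 7015900 to 10389800 reads as recovered from the TPM (to the nearest 100), with 7391900 to 7957800 at day 3 and 8888100 to 10389800 at day 12. The header gives all 24 libraries of the table the same run and date, so no batch split was possible. The liver markers were high in all 12 libraries: ALB lay between 2982 and 16425 TPM, AFP between 832 and 5560 TPM, APOA1 between 1413 and 3699 TPM and HNF4A between 21.7 and 32.0 TPM. Markers of other cells were mostly near 0. None of 12 fibroblast and stellate cell markers passed the filter on low values, with a sum of 0.88 to 2.15 TPM per library, and CD3E, CD163, HBB and HBA2 were listed at 0 in all 12 control libraries. Of 14 blood and immune markers LYZ, CD14, CD68 and CD3D passed the filter. LYZ, lysozyme, was high, with 557, 824, 1046 and 782 TPM on average at days 3, 6, 9 and 12, and it carried most of that list's sum of 541.92 to 586.47 TPM at day 3, 796.52 to 864.58 TPM at day 6, 977.84 to 1120.24 TPM at day 9 and 735.35 to 829.55 TPM at day 12. CD14 averaged 1.74, 2.47, 2.85 and 5.63 TPM on the same days. The part of these markers in the results was not tested. Of 11 endothelial markers, summed at 2.27 to 5.69 TPM, 2 passed the filter. Of 15 markers of enterocytes and Caco-2 cells, summed at 49.14 to 67.22 TPM, 4 passed the filter.

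As background, a hepatocyte secretes most plasma proteins, makes and stores glucose, builds lipoproteins and bile acids, and buffers metals such as zinc and iron. A small set of transcription factors, among them the HNF1, HNF4, FOXA and C/EBP families, keeps these genes on, while fetal and biliary genes are low in the adult cell. HepG2 keeps many of these functions in a dividing tumour cell, with fetal genes such as AFP still on. Several signals that a culture can change act on these genes through known factors: low oxygen through HIF, insulin through FOXO, BMP ligands through SMAD, metals through MTF1 and amino acid shortage through ATF4.

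With vitamin B2 present, the HepG2 transcriptome moved a little by day 6 and widely by days 9 and 12. By day 12 most secreted liver proteins, genes of gluconeogenesis or held down by insulin, ribosomal proteins and amino acid response genes had risen, while most cell division genes, metallothioneins, the iron hormone HAMP, biliary-type genes, proteasome subunits and respiratory chain genes had fallen. Changes were tested with limma on log2(TPM + 1) over 12488 genes, with a Benjamini-Hochberg adjusted p under 0.05 as the threshold. Of these genes 2595 passed at day 6 against day 3 (20.8%), of which 870 were higher (6.97%) and 1725 lower (13.8%). At day 9 against day 3 the count was 7409 (59.3%), with 1934 higher (15.5%) and 5475 lower (43.8%). At day 12 against day 3 it was 8357 (66.9%), with 2507 higher (20.1%) and 5850 lower (46.8%). Between neighbouring days, 5941 genes (47.6%) passed at day 9 against day 6 and 3828 (30.7%) at day 12 against day 9. The 3 comparisons with day 3 share its 3 libraries, so their values are given side by side.

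The excess of lower genes depended on the scale. The median log2 fold change of all tested genes was −0.037 at day 6, −0.186 at day 9 and −0.205 at day 12, each against day 3. The 10 most abundant entries took 14.63 ± 0.27%, 16.1 ± 0.62%, 20.97 ± 1.36% and 23.63 ± 0.99% of the listed TPM on days 3, 6, 9 and 12 (SD, n = 3 each). These entries differed between days, and RNU4ATAC came first on each. The listed TPM summed to 366976 to 368482 per control library at day 3 and 389047 to 397182 at day 12. They were tested as deposited, without rescaling to a common sum. After each library was scaled to the same median, 3883 genes were higher (31.1%) and 4087 lower (32.7%) at day 12 against day 3, and 3210 (25.7%) and 3504 (28.1%) at day 9. A count of members is therefore best read against these shares. Medians of lists below are differences from day 3 on the log2 scale, with the value relative to the median of all genes beside them.

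**Figure D1:**
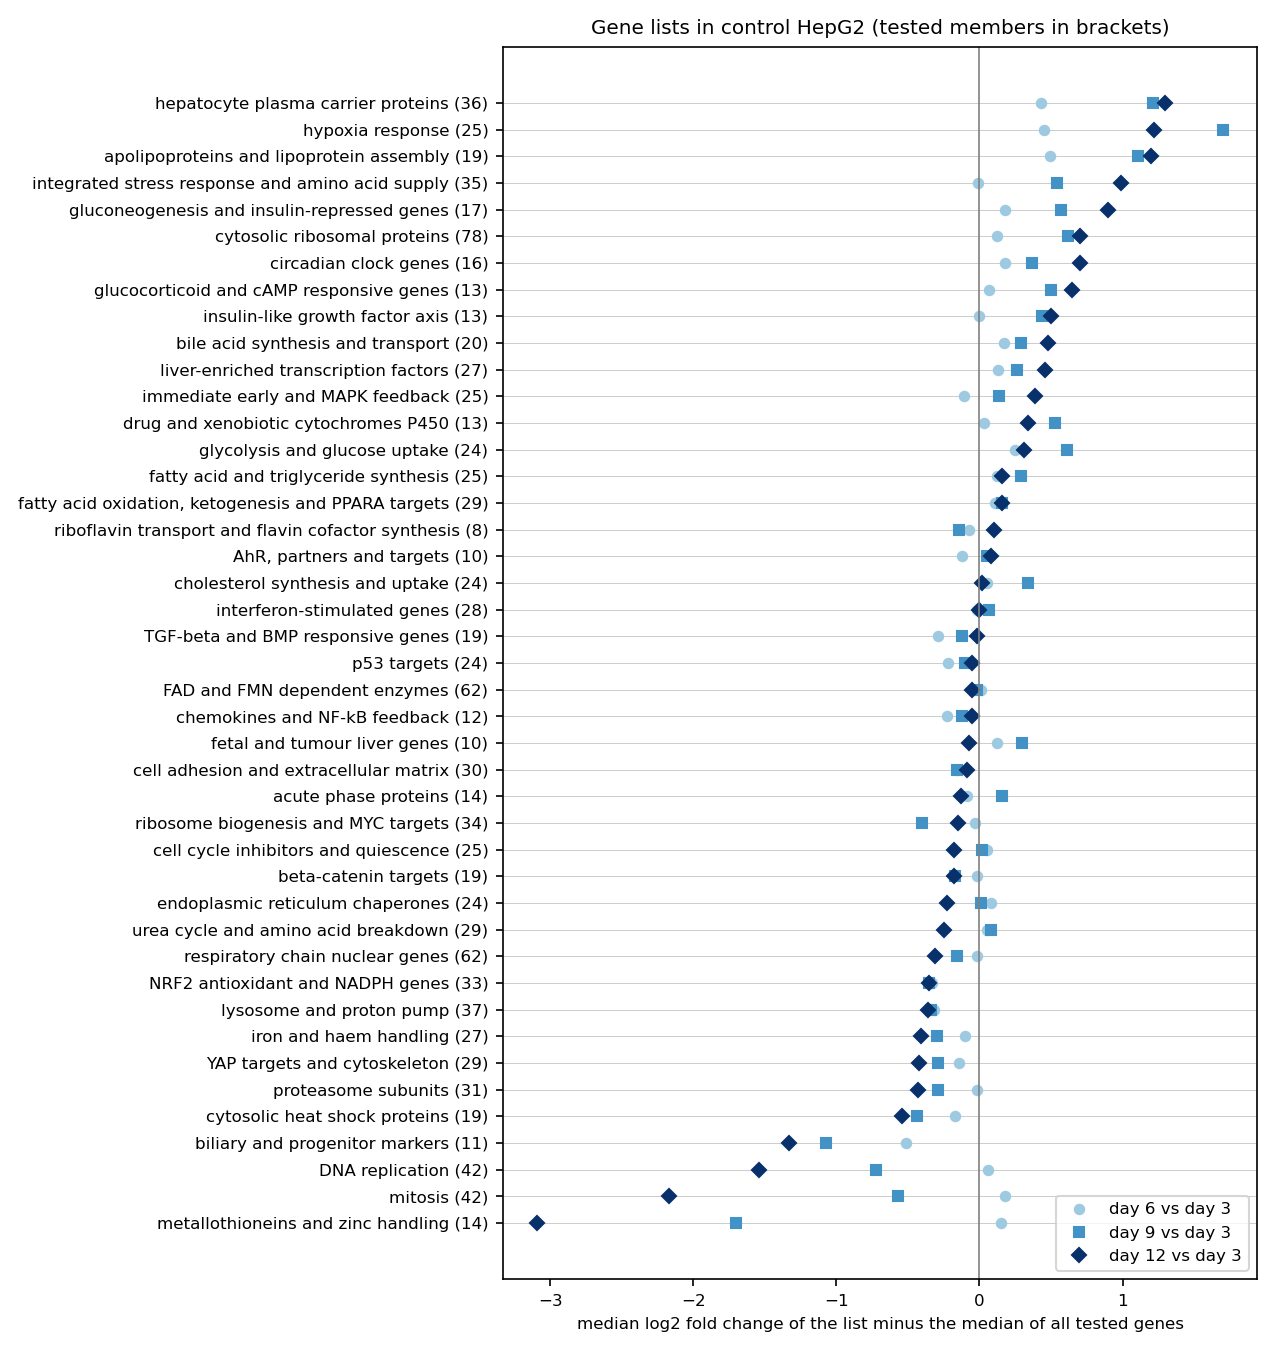
Median log2 fold change of each gene list at day 6 (circles), day 9 (squares) and day 12 (diamonds) against day 3, minus the median of all tested genes; the number of tested members is in brackets. Plasma proteins and the hypoxia list lie farthest to the right at day 12, at 1.30 and 1.22, and the metallothionein and mitosis lists farthest to the left, at −3.09 and −2.17.

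Most secreted liver protein genes were higher than at day 3 on each later day, albumin and AFP among them. ALB, serum albumin, was at 3087, 3121 and 2982 TPM in the 3 libraries of day 3, 5416, 4939 and 5099.8 TPM at day 6, 11795, 11576 and 12136 TPM at day 9 and 16425, 16119 and 15250.1 TPM at day 12. AFP, the fetal counterpart of albumin, was at 867, 891 and 832 TPM at day 3, 2166, 1926 and 2082 TPM at day 6, 5363, 5041 and 4729 TPM at day 9 and 5402, 5559.6 and 5115 TPM at day 12. Neither gene's libraries overlapped between day 12 and day 3, and AFP's libraries of days 9 and 12 overlapped with each other. At day 12 against day 3, ALB was higher by a log2 fold change of 2.38 (SE 0.05, adjusted p = 4.5e-20) and AFP by 2.63 (SE 0.06, adjusted p = 1.1e-19). Between days 9 and 12 ALB rose further, by 0.43, while the step of AFP was 0.09 (adjusted p = 0.3). In bulk RNA, fewer cells with a transcript and less of it per cell cannot be told apart, which holds for each value here.

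The promoters of ALB and AFP, neighbours on chromosome 4, are shown because both were already high at day 3 and rose. Each is the 250 bases before the RefSeq start (build GRCh38.p14), with capitals marking the letters GTTAAT or their reverse complement, part of the site of the HNF1 factors.
ALB, chr4:73404037-73404286, plus strand: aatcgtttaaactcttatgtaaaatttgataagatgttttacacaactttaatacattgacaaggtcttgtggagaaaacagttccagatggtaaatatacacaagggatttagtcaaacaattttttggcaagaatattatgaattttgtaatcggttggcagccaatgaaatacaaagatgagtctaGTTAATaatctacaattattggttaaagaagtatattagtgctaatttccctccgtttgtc
AFP, chr4:73435971-73436220, plus strand: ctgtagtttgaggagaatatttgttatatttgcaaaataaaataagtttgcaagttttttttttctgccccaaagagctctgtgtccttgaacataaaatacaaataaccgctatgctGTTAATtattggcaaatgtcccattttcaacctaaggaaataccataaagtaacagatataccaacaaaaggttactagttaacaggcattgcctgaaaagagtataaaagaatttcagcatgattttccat
Of the 36 tested plasma protein genes 29 had a promoter in the RefSeq table, and 7 of these (24.1%) held them on either strand: ALB, APOH, FGA, FGB, F2, F13B and CFI. It occurred in 3.5% of the 9257 tested genes with a promoter and in 6.2% of all 27305 promoters. AFP is on the list of fetal genes, so its match is not in that count. A match of letters is a description and not a measured site.

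Of the 36 tested plasma protein genes (of 43 listed), 26 were higher at day 6, 31 at day 9 and 32 at day 12, against 6.97%, 15.5% and 20.1% of all genes. The list's median at day 12 was 1.10, or 1.30 relative to all genes. CP, the copper-carrying ferroxidase of plasma, averaged 6.22, 26.3, 94.0 and 87.9 TPM at days 3, 6, 9 and 12 (log2 fold change 3.62, SE 0.10, adjusted p = 3.1e-18 at day 12). ITIH3, a chain that binds hyaluronan, averaged 6.87, 12.7, 47.6 and 86.5 TPM on those days, and A1BG, a plasma glycoprotein, 4.31, 11.7, 32.0 and 62.1 TPM. TF, the plasma iron carrier transferrin, averaged 674, 1165, 3128 and 4176 TPM. All 4 rose, with day 12 libraries above those of day 3. GC, which carries vitamin D, was near the floor at day 3 with a mean of 0.202 TPM and averaged 8.13 TPM at day 12. The 4 members that fell at day 12 were HPX, CFI (−0.98), C5 (−0.47) and FGG (−0.26); the calls of C5 and FGG ended after median scaling. HPX, hemopexin, the plasma carrier of haem, was the opposite of its list: it averaged 51.7, 39.5, 13.9 and 2.39 TPM over the 4 days, and its step at day 6 did not pass the test (−0.38, adjusted p = 0.19) while the day 12 value did (log2 fold change −3.99, SE 0.20, adjusted p = 2.3e-12).

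Apolipoproteins and lipoprotein genes mostly rose too, with 15 of 19 higher and 4 lower at day 12 and a median of 1.00 (1.20 relative to all genes). ANGPTL8, a liver hormone that restrains lipoprotein lipase, averaged 13.4, 31.6, 76.1 and 139 TPM over the 4 days. APOC3, which slows the clearance of triglyceride-rich particles, averaged 144, 286, 584 and 621 TPM, and APOM, a lipocalin on high-density particles, 69.2, 172, 334 and 271 TPM with its highest mean at day 9. All 3 rose at day 12 against day 3. PLTP, APOA2 and LIPC were among those that fell. APOA2, a main protein of high-density lipoprotein, averaged 7052, 7850.0, 7148 and 4206 TPM and fell between days 9 and 12 (−0.77). PLTP, the phospholipid transfer protein, averaged 75.3, 54.2, 25.2 and 21.2 TPM. Acute phase proteins, which the liver secretes in inflammation, did not move together: 4 of 14 rose and 8 fell at day 12, and SAA4 (−1.73) and HP (−1.59) fell beside HAMP and HPX.

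**Figure D2:**
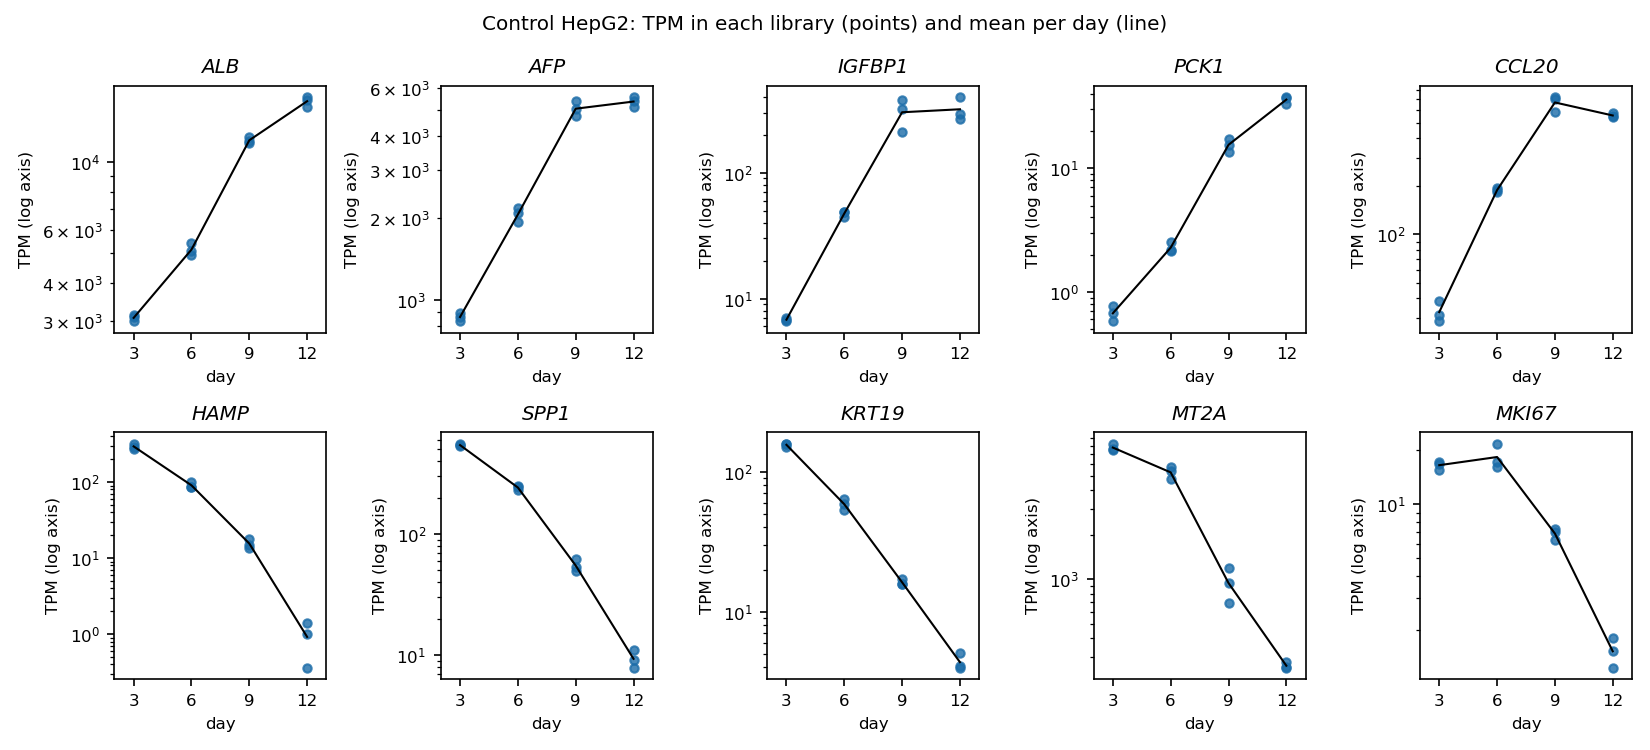
TPM of 10 genes in each of the 12 control libraries (points) by day, with the mean per day as a line and logarithmic axes. The upper row rose at days 9 and 12 and the lower row fell, HAMP to a mean of 0.92 TPM at day 12, against 295 TPM at day 3.

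Genes of biliary and progenitor cells fell while AFP rose. SPP1, osteopontin, a secreted matrix protein of bile duct cells and many tumours, was at 557, 541 and 529 TPM at day 3, 245, 232 and 249 TPM at day 6, 49.8, 53.1 and 61.8 TPM at day 9 and 7.83, 9.10 and 11.0 TPM at day 12. KRT19, a keratin of bile duct cells, was at 158, 150.4 and 159 TPM at day 3, 53.3, 64.1 and 58.6 TPM at day 6, 17.2, 15.8 and 15.7 TPM at day 9 and 4.06, 5.03 and 3.96 TPM at day 12. Neither gene's libraries overlapped between any 2 days. The log2 fold change at day 12 was −5.73 for SPP1 (SE 0.08, adjusted p = 1.6e-23) and −4.88 for KRT19 (SE 0.07, adjusted p = 6.4e-23). SOX4, a transcription factor of immature epithelia, averaged 27.0, 10.7, 3.72 and 3.31 TPM over the 4 days, and CLDN4, a tight junction protein, 36.5, 18.2, 8.98 and 7.57 TPM; both fell. Of 11 tested members 7 fell and 2 rose at day 12, with a median of −1.53 (−1.33 relative to all genes). The 2 that rose were SOX9, by 0.16, and ONECUT1, by 1.54; without replicate 3 of day 3 the number that rose was 1. ONECUT1, also called HNF6, acts in both hepatocytes and bile ducts and averaged 9.37, 13.0, 20.0 and 29.0 TPM.

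Fetal and tumour liver genes split. AFP, IGF2 (396, 675, 1463 and 2191 TPM over the 4 days), GPC3 (655, 778, 1227 and 1234 TPM) and DLK1 (0.40 at day 12) rose. IGF2 is a fetal growth factor and GPC3 a proteoglycan used as a marker of liver tumours. PEG10, an imprinted gene of retrotransposon origin, averaged 303, 281, 132 and 64.8 TPM and fell (log2 fold change −2.21, SE 0.06, adjusted p = 1.5e-18). SPINK1, a trypsin inhibitor, fell by 1.58 and LIN28B, which blocks let-7 maturation, by 1.28 on the log2 scale. In all 4 of 10 rose and 5 fell at day 12 (5 and 5 after median scaling).

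Among liver-enriched transcription factors 14 of 27 rose and 6 fell at day 12, with 17 higher and 4 lower after median scaling. The largest changes were in CEBPB (58.5, 54.3, 97.3 and 179.8 TPM over the 4 days), which acts in regeneration and stress, ONECUT1, and NR2F1 (33.4, 42.7, 54.5 and 82.4 TPM), an orphan nuclear receptor. HNF4A itself averaged 22.6, 25.8, 25.5 and 30.0 TPM and rose slightly, with a log2 fold change of 0.39 at day 12 (adjusted p = 5.2e-06). FOXA1 fell by 0.83, and FOXA2 rose by 0.85 on the log2 scale.

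A few genes that insulin normally holds down rose by large factors. IGFBP1, which binds insulin-like growth factors, was at 6.75, 7.04 and 6.58 TPM at day 3, 44.8, 48.7 and 48.6 TPM at day 6, 319, 377 and 209.7 TPM at day 9 and 290.3, 398 and 269 TPM at day 12. PCK1, the enzyme that commits to gluconeogenesis, was at 0.577, 0.762 and 0.674 TPM at day 3, 2.12, 2.51 and 2.20 TPM at day 6, 13.6, 17.4 and 15.4 TPM at day 9 and 37.1, 37.7 and 33.2 TPM at day 12. IGFBP1 had overlapping libraries at days 9 and 12, while those of PCK1 were apart on all 4 days. Against day 3, the day 12 log2 fold change was 5.34 for IGFBP1 (SE 0.18, adjusted p = 6.4e-15) and 4.47 for PCK1 (SE 0.12, adjusted p = 1.1e-18). G6PC, which releases free glucose, was near 0 at day 3 (0.0527 TPM) and averaged 0.628, 7.38 and 26.5 TPM at days 6, 9 and 12. TXNIP, which restrains glucose uptake and is induced by glucose, averaged 6.98, 11.0, 51.7 and 128 TPM. Of 17 tested members (of 22 listed) 12 rose and 3 fell at day 12, with a median of 0.70 (0.90 relative to all genes). FBP1, FBP2, IRS2, GCGR and PDK4 did not pass the filter on low values, so the list does not cover the whole pathway. Those that fell were SESN3, CCNG2 and SLC37A4. The last did not pass after median scaling or quantile normalization, with no filter, with a pseudocount of 0.1 or in most fits without 1 library. INHBE, a hepatokine of the activin family, averaged 9.17, 7.30, 13.8 and 35.9 TPM and rose most between days 9 and 12 (1.32).

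The glucose carriers SLC2A1 and SLC2A3 were lower by day 12. SLC2A1 (GLUT1), the basal glucose carrier, averaged 52.8, 44.3, 30.0 and 12.8 TPM over the 4 days (log2 fold change −1.97, SE 0.07, adjusted p = 2.9e-16 at day 12), and SLC2A3 (GLUT3) averaged 8.01, 9.75, 4.90 and 0.84 TPM. GCKR, the regulator of glucokinase, averaged 1.76, 1.81, 5.18 and 10.1 TPM and rose. The glycolytic list as a whole had 15 members higher and 7 lower of 24 at day 9, and 9 higher and 9 lower at day 12, with 14 and 7 after median scaling. Several glycolytic genes were highest at day 9. PGK1, phosphoglycerate kinase, averaged 46.4, 65.2, 90.2 and 54.7 TPM and LDHA, lactate dehydrogenase, 104, 143, 169 and 119.8 TPM. For both the step at day 9 against day 6 was up and the step at day 12 against day 9 down, each past the threshold. Their day 12 values against day 3 were small, 0.23 for PGK1 and 0.19 for LDHA, and lay at the threshold or on either side of it under the alternatives. In 12 day 12 control libraries of other HepG2 tables, described below, PGK1 lay at 98.0 to 137 TPM and LDHA at 178 to 287 TPM. Both ranges lie above the day 9 means here.

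Genes that respond to low oxygen rose early in this time course, and the median of their list was highest at day 9. CA9, a carbonic anhydrase that low oxygen switches on through HIF, was at 0.588, 0.057 and 0.123 TPM at day 3, 6.70, 7.32 and 6.58 TPM at day 6, 18.0, 19.6 and 13.0 TPM at day 9 and 9.55, 10.4 and 6.88 TPM at day 12. The libraries of day 3 lay below all others, and those of day 12 below those of day 9. The log2 fold change against day 3 was 2.67 at day 6, 3.84 at day 9 and 2.99 at day 12. The step at day 12 against day 9 was −0.84 (adjusted p = 0.0018). NDRG1, a stress-regulated protein, averaged 28.3, 50.9, 194 and 159 TPM, BNIP3, which targets mitochondria for removal, 29.3, 59.8, 89.4 and 60.7 TPM and PDK1, which closes pyruvate off from mitochondria, 1.78, 6.18, 9.07 and 6.40 TPM. VEGFA, the vessel growth factor, averaged 18.0, 24.1, 53.2 and 63.2 TPM, with its highest mean at day 12. Of 25 tested members 15 rose at day 6, 23 at day 9 and 19 at day 12, with medians of 0.42, 1.51 and 1.01 (0.45, 1.70 and 1.22 relative to all genes). At day 12 the 3 that fell were SLC2A1, HILPDA and EPO. Of these EPO (−0.44) did not pass after median scaling, quantile normalization or without replicate 2 or 3 of day 3 or 1 or 3 of day 12. In 12 day 12 control libraries of other HepG2 tables, described below, BNIP3 lay at 94.4 to 125 TPM, above its day 9 mean here. NDRG1 at 136 to 390 TPM, PDK1 at 6.35 to 11.0 TPM and CA9 at 8.28 to 20.1 TPM lay on both sides of their day 9 values. The fall after day 9 is thus described for this time course only. The oxygen of the cultures was not measured in these files.

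The CA9 promoter is shown with capitals at ACGTG or GCGTG or their reverse complements, the core of the hypoxia response element; the match lies close to the start.
CA9, chr9:35673678-35673927, plus strand: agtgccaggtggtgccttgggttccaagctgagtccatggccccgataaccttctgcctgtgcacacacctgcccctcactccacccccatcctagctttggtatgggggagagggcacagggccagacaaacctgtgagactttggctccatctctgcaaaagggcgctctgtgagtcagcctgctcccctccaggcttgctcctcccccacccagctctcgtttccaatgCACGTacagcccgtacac
That core was in 14 of 20 hypoxia genes with a promoter (70.0%), near the 57.8% of tested genes and above the 43.1% of all promoters that hold it.

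**Figure D3:**
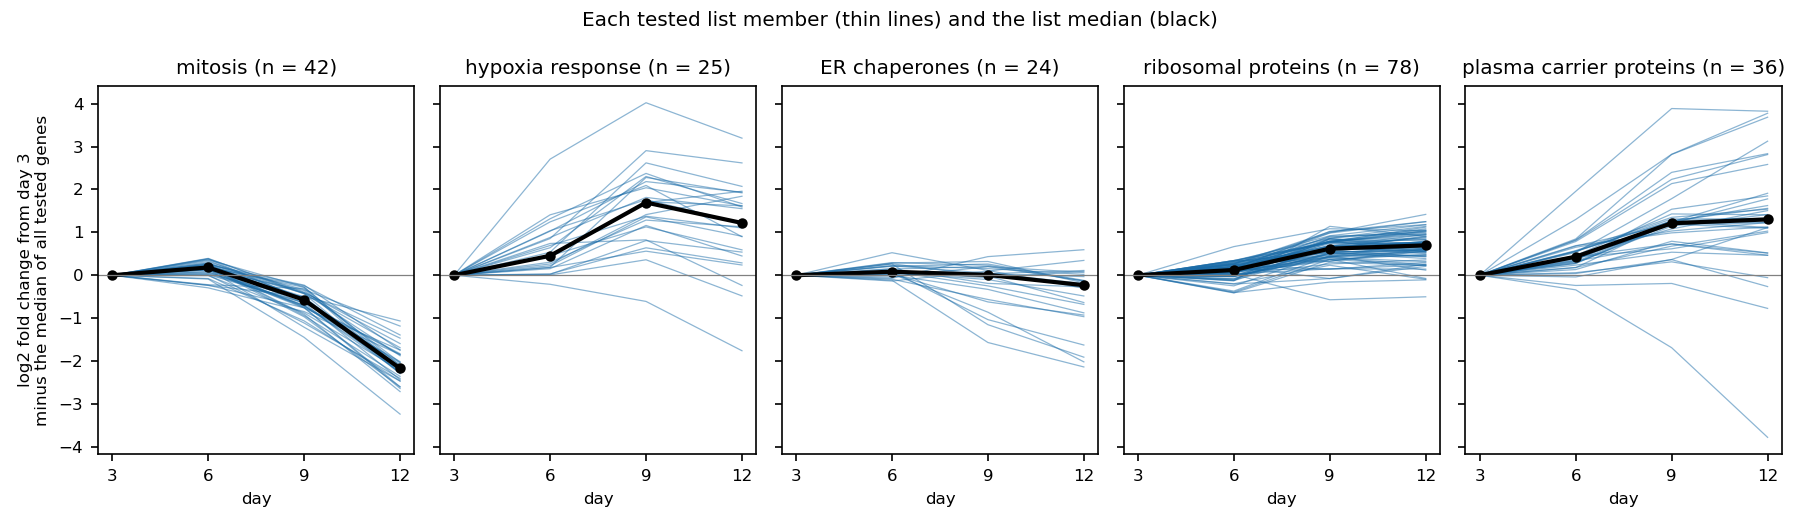
Log2 fold change from day 3, minus the median of all tested genes, for each tested member of 5 lists (thin lines) and the list median (black) at days 3, 6, 9 and 12. Mitosis genes lie near 0.18 at day 6 and reach a median of −2.17 at day 12, hypoxia genes peak at day 9 at 1.70, and ribosomal and plasma proteins climb to 0.70 and 1.30.

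Cell division genes fell together by day 9. MKI67, the proliferation marker Ki-67, was at 16.7, 17.3 and 15.6 TPM at day 3, 16.1, 21.8 and 17.2 TPM at day 6, 7.30, 6.33 and 7.00 TPM at day 9 and 1.52, 1.22 and 1.81 TPM at day 12. The libraries of days 3 and 6 overlapped, and those of days 9 and 12 lay below them and apart from each other. At day 12 the log2 fold change against day 3 was −2.81 (SE 0.10, adjusted p = 1.4e-16), and at day 6 it was 0.13 (adjusted p = 0.38). All 42 tested mitosis genes fell at day 9 and all 42 at day 12, with medians of −0.76 and −2.38, beside 43.8% and 46.8% of all genes. At day 6, 5 were higher and 1 lower (13 and 1 after median scaling), and as deposited these counts varied from 2 to 8 and from 0 to 2 when 1 of the libraries was left out (lowest without replicate 3 of day 3, highest without replicate 2 of day 12). CCNB1, the mitotic cyclin B1, averaged 63.8, 72.5, 29.3 and 7.72 TPM over the 4 days, and MYBL2, a driver of late cell cycle genes, 31.7, 29.0, 9.62 and 2.02 TPM.

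Of 42 DNA replication genes 40 fell at day 9 and 41 at day 12, with medians of −0.91 and −1.75. TK1, thymidine kinase, averaged 36.9, 34.5, 11.4 and 2.03 TPM and RRM2, a subunit of ribonucleotide reductase, 24.7, 23.8, 6.88 and 1.07 TPM. POLD1 was the member that did not pass at day 12 (−0.04, adjusted p = 0.8). The cell cycle inhibitors did not rise as a group, with 3 of 25 higher and 14 lower at day 12 and 9 and 12 after median scaling; without replicate 3 of day 12 the number higher was 5. CDKN1A, the p21 inhibitor and a target of p53, averaged 65.0, 34.7, 28.8 and 38.0 TPM and was lower on all 3 later days. CDKN2A, which encodes p16 and ARF, averaged 24.2, 11.3, 5.97 and 4.24 TPM, and CCND1, cyclin D1, 59.8, 44.5, 24.3 and 16.6 TPM; both fell. BTG1, an antiproliferative protein, averaged 14.5, 18.7, 32.0 and 48.2 TPM and rose. Of 24 p53 targets 4 rose and 12 fell at day 12, which median scaling turned to 10 higher and 7 lower; FDXR, ferredoxin reductase, fell under both (−2.23 as deposited).

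Promoters of 2 mitosis genes are shown because the whole list fell. Capitals mark TTTGAA or its reverse complement, the cell cycle homology region bound by the DREAM complex.
PLK1, chr16:23678639-23678888, plus strand: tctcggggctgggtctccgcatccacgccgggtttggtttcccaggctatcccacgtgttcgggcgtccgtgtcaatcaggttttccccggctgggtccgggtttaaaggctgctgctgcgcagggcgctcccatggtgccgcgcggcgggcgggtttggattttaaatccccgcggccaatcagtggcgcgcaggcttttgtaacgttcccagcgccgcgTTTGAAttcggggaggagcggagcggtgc
CDC20, chr1:43358731-43358980, plus strand: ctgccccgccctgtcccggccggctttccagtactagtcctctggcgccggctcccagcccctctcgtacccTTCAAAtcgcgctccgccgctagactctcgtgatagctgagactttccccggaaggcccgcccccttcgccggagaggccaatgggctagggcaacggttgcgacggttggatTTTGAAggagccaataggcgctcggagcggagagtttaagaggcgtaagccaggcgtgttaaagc
PLK1 is a mitotic kinase and CDC20 an activator of the anaphase-promoting complex. Of 35 mitosis genes with a promoter in the RefSeq set, 20 held these letters (57.1%), against 8.6% of tested genes and 13.6% of all promoters. The letters CCAAT, searched separately on both strands, were in 26 of the 35 (74.3%), against 35.5% of tested genes and 33.0% of all promoters.

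Genes of the amino acid response rose late. ASNS, asparagine synthetase and a target of ATF4, averaged 8.11, 8.15, 16.5 and 28.0 TPM over the 4 days (log2 fold change 1.67, SE 0.08, adjusted p = 4.6e-14 at day 12). ATF3, a stress transcription factor, averaged 3.08, 2.08, 5.12 and 14.6 TPM, and SLC7A11, the cystine carrier, 5.12, 4.57, 7.01 and 14.2 TPM. Of 35 members 21 rose at day 9 and 29 at day 12, with a median of 0.78 at day 12 (0.99 relative to all genes). ATF5, NUPR1 and WARS fell. The chaperones of the endoplasmic reticulum went the other way after day 6: 8 of 24 were higher at day 6, and 1 higher and 19 lower at day 12 (3 and 13 after median scaling). The count at day 6 was 5 when replicate 2 or 3 of day 3, or 1 or 3 of day 6, was left out. MANF, a secreted stress protein, averaged 236, 236, 114 and 49.9 TPM and CALR, the lectin chaperone calreticulin, 303, 317, 129 and 84.4 TPM; both fell at days 9 and 12. HSPA5, the master chaperone BiP, averaged 122, 126, 89.8 and 65.4 TPM. Cytosolic heat shock genes fell from day 6, with 11 lower of 19 at day 6, 17 at day 9 and 15 at day 12. HSF1, the regulator of the list, was the 1 that rose at day 12 (0.34).

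Antioxidant genes under NRF2 fell from the first interval on. NQO1, a flavin-dependent quinone reductase that is also an AhR target, averaged 239, 168, 109.8 and 80.7 TPM over the 4 days (log2 fold change −1.56, SE 0.06, adjusted p = 6.8e-16 at day 12). AKR1B10, an aldo-keto reductase, averaged 23.6, 9.56, 3.89 and 5.26 TPM and HMOX1, haem oxygenase, 20.1, 16.5, 6.53 and 5.68 TPM. Of 33 members 21 were already lower at day 6, when 13.8% of all genes were, and 24 at day 12, with 5 higher (19 lower and 8 higher after median scaling). SLC7A11, which ATF4 also drives, was among those that rose.

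The translation and degradation machinery moved apart. Of 78 cytosolic ribosomal protein genes 61 rose and 4 fell at day 12, with a median of 0.49 (0.70 relative to all genes). RPL23 averaged 836, 974, 1462 and 1941 TPM (log2 fold change 1.21, SE 0.04, adjusted p = 2.5e-16 at day 12). Those that fell were RPS26 and, as deposited but not after median scaling, RPL41, RPL10 and RPL3 (1 lower and 69 higher after scaling). RPL10 also did not pass with quantile normalization, with no filter, with controls alone or without replicate 1 or 3 of day 3 or 1 or 2 of day 12. Ribosomal protein genes have many near-identical copies, and how reads between copies were assigned is not given in the sources used here, so single members are uncertain. A list that joins genes for building ribosomes with targets of the regulator MYC went another way. Of its members 2 of 34 rose and 22 fell at day 12 (9 and 16 after median scaling). SRM, spermidine synthase, averaged 91.3, 87.3, 33.5 and 33.7 TPM and NME1, a nucleoside diphosphate kinase, 129.6, 112, 57.5 and 54.7 TPM. Proteasome subunits fell in 29 of 31 cases at day 12, with a median of −0.63 (−0.43 relative to all genes); after median scaling 24 were lower and 1 higher.

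Nuclear genes of the respiratory chain fell in 46 of 62 cases at day 9 and 51 at day 12, with a median of −0.52 at day 12 (−0.31 relative to all genes). After median scaling 24 were lower and 7 higher at day 9, and 41 lower and 5 higher at day 12. NDUFB3, a subunit of complex I, averaged 71.0, 67.3, 43.2 and 28.2 TPM over the 4 days. The 1 that rose as deposited, COX7C (0.11), did not pass with no filter, with quantile normalization or with voom on recovered reads. It also did not pass in the fits without replicate 1 or 3 of day 3 or without any 1 library of day 12. Lysosomal genes were lower in 23 of 37 cases at day 6 and 27 at day 12, with 5 higher at day 12 (20 lower and 8 higher after median scaling). NEU1, the lysosomal sialidase, averaged 224, 133, 75.0 and 51.6 TPM and CTSA, the protective protein that binds it, 67.6, 46.0, 20.6 and 17.0 TPM; CTSD, a protease, rose by 0.93 on the log2 scale.

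Metallothioneins are small proteins that hold zinc and copper, and their list with the zinc carriers had the lowest median of those plotted at day 12, −3.30 (−3.09 relative to all genes). MT2A was at 8253, 7425 and 7641 TPM at day 3, 5366, 4766 and 5709 TPM at day 6, 944, 693 and 1191 TPM at day 9 and 275, 251 and 253 TPM at day 12. Its libraries did not overlap between any 2 days, and the log2 fold change at day 12 was −4.90 (SE 0.13, adjusted p = 1.2e-16). MT1G averaged 2481, 2772, 364 and 53.4 TPM over the 4 days, MT1E 1827, 2009, 356 and 78.5 TPM and MT1X 353, 354, 62.0 and 20.4 TPM, with no change past the threshold at day 6 in these 3. All 8 tested metallothionein genes fell at day 9 and day 12. They are near-identical copies on chromosome 16 that can share reads, so the values of single members are uncertain. Among genes named after the zinc carrier families, SLC39A10, which brings zinc in, averaged 4.68, 4.27, 10.2 and 13.1 TPM and SLC30A10 4.05, 5.50, 8.41 and 8.71 TPM. Both rose. SLC30A1, a zinc exporter under the same factor MTF1, averaged 8.98, 8.71, 5.49 and 7.58 TPM and was at −0.22 at day 12 (adjusted p = 0.07). That value passed with the replicate block, with voom on recovered reads, and without replicate 1 of day 3, 2 of day 9 or 3 of day 12.

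The promoters of MT2A and MT1X, the 2 most abundant of the 3 members in the RefSeq table, are shown with capitals at TGCACNC or TGCGCNC or their reverse complements, the core of the metal response element.
MT2A, chr16:56608334-56608583, plus strand: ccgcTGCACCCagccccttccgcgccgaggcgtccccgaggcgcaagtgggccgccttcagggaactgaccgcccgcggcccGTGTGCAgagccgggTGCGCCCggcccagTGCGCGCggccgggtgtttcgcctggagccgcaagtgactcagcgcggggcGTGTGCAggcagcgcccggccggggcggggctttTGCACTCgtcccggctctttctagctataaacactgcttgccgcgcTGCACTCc
MT1X, chr16:56682220-56682469, plus strand: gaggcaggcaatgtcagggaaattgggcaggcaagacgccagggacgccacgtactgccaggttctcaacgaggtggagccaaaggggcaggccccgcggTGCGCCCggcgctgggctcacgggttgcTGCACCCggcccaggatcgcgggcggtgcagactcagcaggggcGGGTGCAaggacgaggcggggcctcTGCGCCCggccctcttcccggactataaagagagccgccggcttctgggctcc
MT2A held 7 such matches and MT1X 4. All 3 members in the table held at least 1, as did 33.0% of tested genes and 24.7% of all promoters.

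Iron regulation changed at its hormone. HAMP encodes hepcidin, which the liver secretes to block iron export and which BMP signals through SMAD raise. It was at 292, 320.1 and 273 TPM at day 3, 86.6, 86.6 and 98.9 TPM at day 6, 17.9, 15.1 and 13.7 TPM at day 9 and 0.996, 1.40 and 0.36 TPM at day 12. No 2 days overlapped, and the log2 fold change was −1.69 at day 6, −4.16 at day 9 and −7.30 at day 12 (SE 0.15, adjusted p = 6.9e-19). ID1 and ID3, inhibitors of differentiation that are direct BMP targets, averaged 346, 241, 123 and 51.1 TPM and 102, 52.1, 17.0 and 6.04 TPM over the 4 days, and SMAD7, an inhibitor that the same signal induces, 6.65, 4.38, 3.30 and 2.12 TPM. All 3 fell. BMP6, the ligand that signals iron stores, averaged 57.8, 52.7, 38.5 and 30.9 TPM and also fell. TFR2, a sensor of transferrin on hepatocytes, averaged 4.89, 7.04, 11.4 and 20.1 TPM and TMPRSS6, a protease that lowers hepcidin, 0.357, 0.597, 1.17 and 1.20 TPM; both rose. TFRC, the transferrin receptor of iron uptake, did not pass (−0.12, adjusted p = 0.27) but did with voom on recovered reads (−0.185, adjusted p = 0.0353). In all 6 of 27 iron and haem genes rose and 19 fell at day 12, beside 20.1% and 46.8% of all genes. UROD, an enzyme of haem synthesis, was among those that fell (−1.75). Of the 19 TGF-beta and BMP responsive genes 6 rose and 9 fell (8 and 6 after median scaling), so this list did not move together; CTGF and INHBE were among those that rose.

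The HAMP promoter is shown because this gene fell most of all those named. Capitals mark GGCGCC, the core of the BMP response element, which reads the same on both strands.
HAMP, chr19:35282278-35282527, plus strand: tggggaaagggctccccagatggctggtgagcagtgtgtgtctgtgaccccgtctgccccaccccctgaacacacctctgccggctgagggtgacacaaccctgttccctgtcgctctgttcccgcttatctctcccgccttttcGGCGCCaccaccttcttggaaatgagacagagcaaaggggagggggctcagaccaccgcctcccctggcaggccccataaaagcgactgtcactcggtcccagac
The same letters were in 5 of 15 TGF-beta and BMP responsive genes with a promoter (33.3%), and in 25.4% of tested genes and 16.1% of all promoters.

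S100A11, TIMP1, LGALS1 and S100A6 were already lower at day 6. S100A11, a calcium-binding protein, averaged 87.3, 19.7, 6.91 and 5.33 TPM over the 4 days and had the lowest fold change of the named genes at day 6 (log2 fold change −2.09, SE 0.10, adjusted p = 4.2e-12). TIMP1, an inhibitor of matrix proteases, averaged 64.8, 19.6, 5.42 and 2.74 TPM, LGALS1, a galectin, 138, 44.7, 37.0 and 33.4 TPM and S100A6 581, 219.8, 153 and 143 TPM. LGALS1 and S100A6 made most of their change by day 6 and TIMP1 went on falling to day 12. ANKRD1, a target of the growth coactivator YAP, averaged 33.4, 13.6, 4.86 and 2.22 TPM, whereas CTGF, another YAP target that also responds to TGF-beta, averaged 29.3, 74.0 and 117 TPM at days 3, 9 and 12 and rose. FSCN1, which bundles actin, averaged 79.4, 44.1, 13.6 and 6.35 TPM. Of 29 YAP and cytoskeleton genes 18 fell and 8 rose at day 12, and of 30 adhesion and matrix genes 16 fell and 7 rose. Of all genes 46.8% were lower and 20.1% higher, so the adhesion and matrix counts lay near the shares of all genes. CDH1, E-cadherin, averaged 1.74, 0.985, 1.61 and 3.88 TPM, lower at day 6 (−0.46) and higher at day 12 (0.84).

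Of the secreted signals CCL20, a chemokine that draws lymphocytes and dendritic cells, stood out. It was at 31.3, 38.1 and 28.6 TPM at day 3, 194, 185 and 189 TPM at day 6, 702, 722 and 585 TPM at day 9 and 539.8, 578 and 547 TPM at day 12. Its day 3 libraries lay below all others, and its log2 fold change at day 12 was 4.05 (SE 0.10, adjusted p = 9.0e-19). Its list did not follow, with 4 of 12 chemokine and NF-kB genes higher and 7 lower (5 and 5 after median scaling), CXCL8 being lower (−0.88). AREG, a ligand of the EGF receptor, averaged 24.3, 7.84, 2.79 and 3.48 TPM and fell. TSC22D3, a glucocorticoid-induced gene that FOXO also raises, averaged 2.72, 1.88, 4.55 and 24.0 TPM and rose most between days 9 and 12 (2.18), while FKBP5, another glucocorticoid target, averaged 10.7, 10.9, 4.58 and 3.81 TPM and fell. FXYD1, a regulator of the sodium pump, averaged 1.05, 7.18, 30.0 and 40.6 TPM, TNNI2, a troponin of fast muscle, 0.463, 3.14, 17.5 and 24.8 TPM and SLC5A3, the inositol carrier, 5.60, 7.71, 28.5 and 51.8 TPM; these 3 were among the 12 highest at day 12. Clock genes were higher in 9 of 16 cases at day 12, beside 20.1% of all genes. NFIL3 averaged 23.8, 28.9, 44.0 and 71.6 TPM over the 4 days. The hour of sampling is not given.

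For lipid genes the counts depended on the scaling. Of 24 cholesterol genes 12 were higher and 5 lower at day 9 (3 lower without replicate 1 or 2 of day 9), and 5 higher and 12 lower at day 12, which median scaling turned to 9 and 9. In fatty acid synthesis 8 of 25 rose and 11 fell (11 and 5 after median scaling), with GPAM, which starts triglyceride synthesis, at 33.7, 44.2, 74.9 and 106 TPM and ACLY, which supplies acetyl-CoA, at 75.5, 61.4, 53.1 and 31.5 TPM. FABP1, the liver fatty acid carrier, averaged 857, 2129.7, 4195 and 2743 TPM and was highest at day 9. In bile acid genes 10 of 20 rose and 5 fell (12 and 3 after median scaling, and 3 fell without replicate 3 of day 3 or 2 of day 12); BAAT, which conjugates bile acids, averaged 1.25, 1.02, 3.92 and 10.8 TPM, ABCB4, which exports phospholipid into bile, 2.74, 6.09, 9.55 and 11.5 TPM and UGT2B4, which glucuronidates bile acids, 0.599, 1.13, 6.03 and 19.3 TPM. All 3 rose. In the urea cycle and amino acid breakdown 7 of 29 tested genes (of 38 listed) rose and 19 fell, beside 20.1% and 46.8% of all genes. After median scaling 8 rose and 15 fell. OTC, TAT, TDO2 and CBS were among the members below the filter on low values. ARG1, liver arginase, averaged 0.313, 3.22, 10.3 and 8.63 TPM and HAL, histidase, 0.040, 0.18, 1.94 and 2.94 TPM, against the trend of their list.

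Several signalling lists held large changes in both directions. Their day 12 counts stand beside 20.1% of all genes that were higher and 46.8% that were lower. Of 19 beta-catenin targets 6 rose and 12 fell at day 12: SLC1A2, a glutamate carrier of pericentral hepatocytes, averaged 1.67, 3.14, 11.1 and 13.7 TPM over the 4 days and rose, while the feedback inhibitors DKK1 (19.0, 28.1, 12.8 and 5.93 TPM) and NKD1 (23.4, 17.7, 10.5 and 8.16 TPM) fell. In the insulin-like growth factor axis 7 of 13 rose and 5 fell, with IGFBP3 at 0.114, 0.080, 5.20 and 3.70 TPM and INSR, the insulin receptor, at 8.95, 9.37, 17.2 and 23.6 TPM among those that rose, and IGFBP4 at 35.2, 13.3, 11.5 and 13.5 TPM among those that fell. Immediate early genes, which growth factor signals switch on, rose in 10 of 25 cases and fell in 8. DUSP1 and DUSP5, phosphatases that end MAP kinase signals, went apart, with 3.70, 3.29, 10.6 and 13.7 TPM and 3.63, 0.783, 0.549 and 0.398 TPM over the 4 days. Interferon-stimulated genes rose in 6 of 28 cases and fell in 11 (9 and 8 after median scaling), with IFITM2, which blocks viral entry, at 113, 87.7, 72.3 and 45.5 TPM and IFI6 at 19.0, 18.5, 21.4 and 39.3 TPM. The list of drug-metabolising cytochromes P450 also holds POR, which passes electrons to them. Of its 26 genes 13 passed the filter on low values, and of these 5 rose, POR among them, and 5 fell (6 and 4 after median scaling). CYP4F12 averaged 4.74, 6.04, 9.60 and 10.9 TPM and rose, and CYP2W1 averaged 4.54, 2.85, 3.26 and 1.69 TPM and fell. In fatty acid oxidation and PPARA targets 10 of 29 rose and 11 fell (14 and 6 after median scaling), with ANGPTL4, an inhibitor of lipoprotein lipase, at 0.836, 1.17, 6.07 and 9.10 TPM and PLIN2, a lipid droplet coat protein, at 122, 150.5, 282 and 254 TPM rising, and HADHB, of the mitochondrial beta-oxidation complex, at 41.8, 39.5, 31.1 and 23.2 TPM falling.

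Genes that carry riboflavin or make its cofactors were mostly lower at day 9 on the deposited scale and mixed at day 12. Of 8 tested, 1 rose and 6 fell at day 9, with 2 and 3 after median scaling and 2 higher without replicate 3 of day 9. At day 12, 2 rose and 2 fell (3 and 2 after median scaling). SLC52A2, the riboflavin carrier, averaged 16.7, 15.2, 13.1 and 15.1 TPM over the 4 days (log2 fold change −0.14 at day 12, adjusted p = 0.14). RFK, which makes FMN, averaged 17.0, 12.6, 12.1 and 16.4 TPM and was lower at days 6 and 9, with −0.06 at day 12 (adjusted p = 0.56); that last value was positive and past the threshold after median scaling (0.184) and quantile normalization (0.225). FLAD1, which makes FAD, averaged 4.43, 3.26, 2.00 and 2.78 TPM and fell (−0.53), and ENPP3, an ectoenzyme that can split FAD, averaged 3.71, 5.76, 9.37 and 7.61 TPM and rose (0.87). Of 62 enzymes that need FAD or FMN 15 rose and 32 fell at day 12, and 23 and 26 did after median scaling. FMO5, a flavin monooxygenase, averaged 7.99, 13.0, 36.0 and 44.1 TPM, POR, which passes electrons to cytochromes P450, 61.2, 68.1, 97.7 and 132 TPM and NOS3, endothelial nitric oxide synthase, 4.21, 1.25, 0.358 and 0.442 TPM; the first 2 rose and NOS3 fell.

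AHR and CYP1A1 were low, and the members of the AhR list moved in different directions. AHR averaged 3.95, 3.45, 5.18 and 8.68 TPM over the 4 days and rose by 0.97 on the log2 scale at day 12 (SE 0.08, adjusted p = 1.9e-10). CYP1A1, the cytochrome P450 that AhR induces, was at 4.95, 5.17 and 6.35 TPM at day 3, 2.33, 2.51 and 2.35 TPM at day 6, 2.81, 2.14 and 2.32 TPM at day 9 and 4.15, 3.70 and 2.87 TPM at day 12. Its libraries of days 6 and 9 overlapped, and it was lower than at day 3 on each later day, with a log2 fold change of −0.93 at day 6 and −0.51 at day 12 (adjusted p = 9.3e-04). TIPARP, an AhR target that dampens the receptor, averaged 5.05, 4.70, 5.97 and 6.68 TPM and UGT1A6, a glucuronosyltransferase of the shared UGT1A locus, 0.17, 0.138, 0.345 and 0.784 TPM. Of 10 tested members of the list of 21, 3 rose and 4 fell at day 12 (5 and 3 after median scaling). NFE2L2, which encodes NRF2, was among those that fell (−0.56).

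The course of controls was set beside that of cells without vitamin B2 by a test of the difference itself. The change from day 3 to day 12 in controls minus that in B2_minus passed the threshold for 4707 genes (37.7%), of which 1735 were positive (13.9%) and 2972 negative (23.8%). The labels do not say when the vitamin was withdrawn, so the day 3 groups need not be a common start. ALB averaged 15931 ± 609.5 TPM in controls and 3188 ± 135 TPM in B2_minus at day 12, and 3063 ± 72.2 TPM in controls and 2725 ± 103 TPM in B2_minus at day 3 (SD, n = 3 each), with a difference of 2.15 (adjusted p = 1.5e-15). AFP averaged 5359 ± 225 TPM in controls and 566 ± 29.7 TPM in B2_minus at day 12, and 863 ± 29.9 TPM and 670.0 ± 13.3 TPM at day 3. SPP1 averaged 9.31 ± 1.58 TPM in controls and 955 ± 19.3 TPM in B2_minus at day 12, and 542 ± 13.8 TPM and 792 ± 38.4 TPM at day 3. In B2_minus the level of ALB was a little higher at day 12 than at day 3, that of AFP a little lower and that of SPP1 higher, whereas in controls the changes were many times larger and, for SPP1, downward. MT2A averaged 260.1 ± 13.4 TPM in controls and 4908 ± 32.8 TPM in B2_minus at day 12, and ANKRD1 2.22 ± 0.278 TPM and 43.4 ± 2.35 TPM.

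For MKI67, RPL23 and S100A6 the day 12 level lay on the same side of day 3 in both courses. MKI67 averaged 1.52 ± 0.291 TPM in controls and 2.19 ± 0.107 TPM in B2_minus at day 12, and 16.5 ± 0.852 TPM and 13.6 ± 0.965 TPM at day 3, a difference of −0.62 (adjusted p = 0.0013). Of 42 mitosis genes 31 had a more negative change in controls than in B2_minus, with a median difference of −0.54 beside −2.38 for the course itself. RPL23 averaged 1941 ± 76.3 TPM in controls and 1766 ± 43.1 TPM in B2_minus at day 12, and 836 ± 21.8 TPM and 876 ± 6.67 TPM at day 3; of 78 ribosomal protein genes 15 had a positive and 9 a negative difference. S100A6 averaged 143 ± 8.40 TPM in controls and 179 ± 9.27 TPM in B2_minus at day 12, and 581 ± 14.4 TPM and 603 ± 34.2 TPM at day 3, and its difference did not pass (−0.27, adjusted p = 0.081). CYP51A1, a sterol demethylase, was higher at day 12 than at day 3 in controls and lower in B2_minus: it averaged 55.0 ± 1.50 TPM in controls and 16.8 ± 0.673 TPM in B2_minus at day 12, and 38.5 ± 0.389 TPM and 33.9 ± 1.98 TPM at day 3. Of 24 cholesterol genes 18 had a positive difference (median 0.57), and in controls alone 5 were higher and 12 lower at day 12 than at day 3. Of 62 respiratory chain genes 49 had a negative difference (median −0.53), and of 25 hypoxia genes 17 had a positive one (median 0.69). The median difference over all genes was −0.084, and 13.9% of all genes had a positive and 23.8% a negative difference past the threshold.

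**Figure D4:**
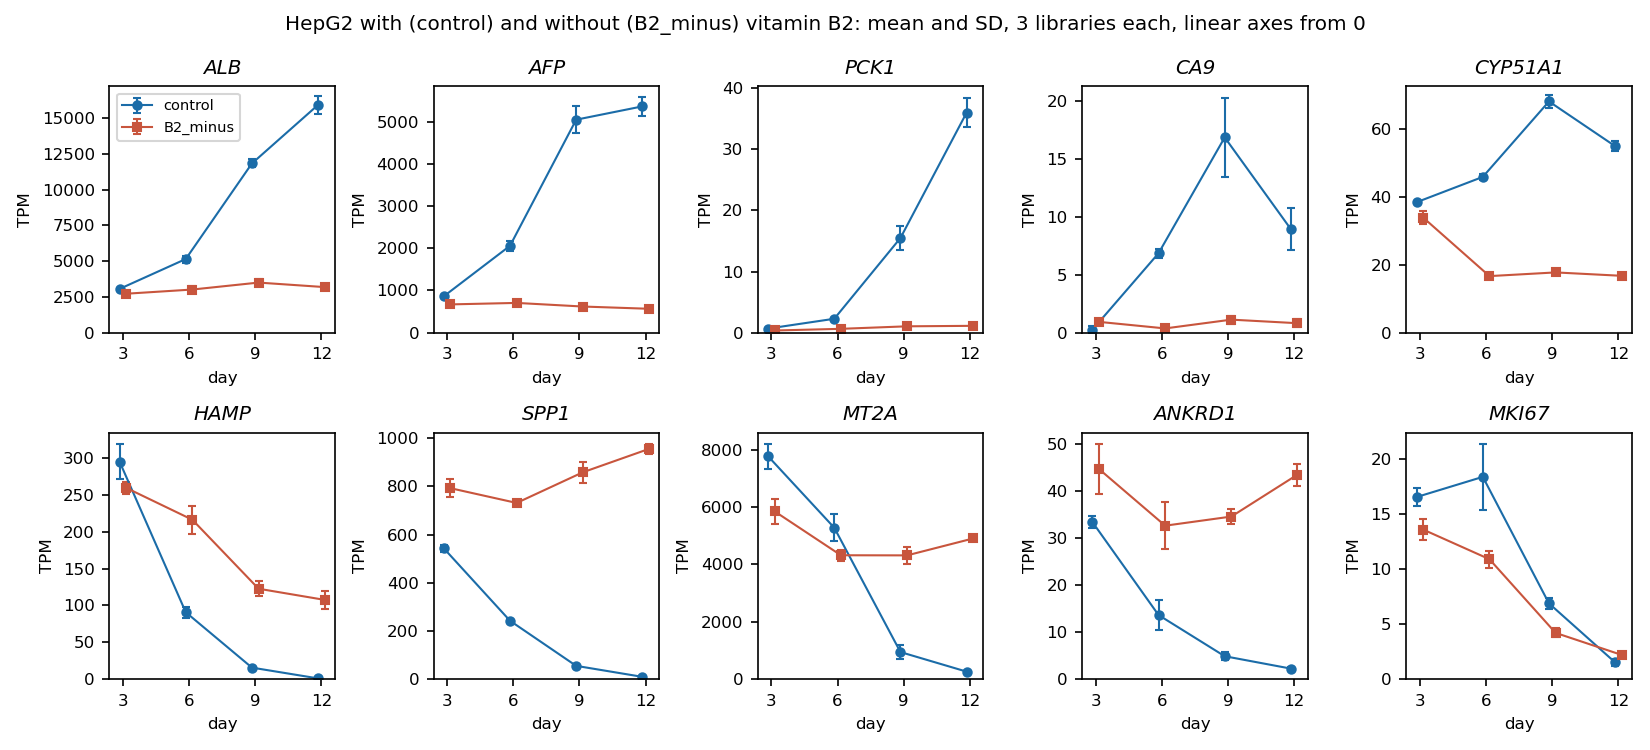
Mean TPM and SD of 3 libraries for 10 genes by day in controls (circles) and in B2_minus (squares), on linear axes from 0. At day 12 ALB, AFP, PCK1, CA9 and CYP51A1 lie higher in controls than in B2_minus, HAMP, SPP1, MT2A and ANKRD1 lie lower, and MKI67 is low in both (1.52 TPM in controls and 2.19 TPM in B2_minus).

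Day 12 controls of 4 other HepG2 tables give levels to set beside the time course: controls of EX2, of EX3, with a control gRNA, and with DMSO in EX4, 3 libraries each. These tables were made separately and the last 2 groups carry a guide or a vehicle, so no test was run across them. Of 126 named genes that were higher at day 12, 90 had all 12 of those libraries above the 3 libraries of day 3, and of 175 that were lower, 133 had all 12 below. With a log2 fold change of at least 1 the counts were 67 of 78 higher genes and 101 of 111 lower ones. Many of these genes were named for large changes, and part of them for no overlap with the same day 3 libraries, which favours such counts. The share over all genes was not taken, so the counts describe the named genes only. The other tables hold no day 3 controls, and the headers of EX2 and EX4 name another sequencer than the time course. HAMP lay at 0.799 to 10.7 TPM in those 12 libraries, SPP1 at 3.01 to 29.6 TPM, KRT19 at 3.31 to 10.9 TPM and MT2A at 359 to 1557 TPM, each below its day 3 libraries. IGFBP1 lay at 443 to 1774 TPM, CCL20 at 514 to 823 TPM and AFP at 3061 to 5669 TPM, each above. The direction was not carried over for some genes: 2 of the higher and 5 of the lower named genes had all 12 libraries on the other side of day 3. IER3, an early response gene, lay at 224 to 502 TPM, above its day 3 libraries, although it had fallen to 103 TPM at day 12, against 210.4 TPM at day 3. AHR lay at 2.51 to 6.51 TPM in the other tables, against a mean of 8.68 TPM at day 12 and 3.95 TPM at day 3 of the time course. MYC, a growth factor-driven regulator, lay at 3.32 to 8.71 TPM, against 13.4 TPM at day 12 and 10.7 TPM at day 3. APOA2 lay at 10847 to 13671 TPM, against 4206 TPM at day 12 and 7052 TPM at day 3. CEBPB averaged 44.4, 72.1, 71.9 and 104 TPM in EX2, EX3, control gRNA and DMSO controls, against 179.8 TPM at day 12 and 58.5 TPM at day 3. TSC22D3 averaged 2.57, 11.5, 5.73 and 5.20 TPM in them, against 24.0 TPM and 2.72 TPM.

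**Figure D5:**
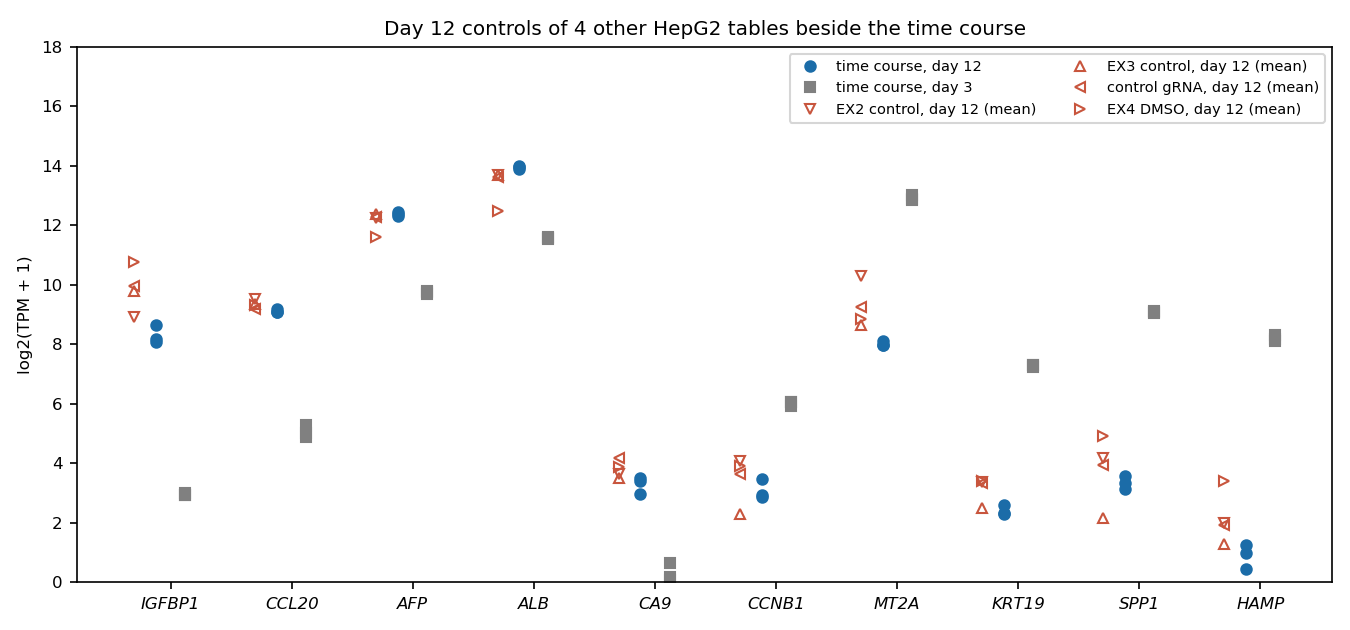
Log2(TPM + 1) of 10 genes in day 12 controls of 4 other HepG2 tables (4 open triangles, each the mean of 3 libraries), in the 3 day 12 controls of the time course (circles) and in its 3 day 3 controls (squares); the y axis is log2. For each gene the day 12 symbols lie on the same side of the squares, with IGFBP1 at 443 to 1774 TPM over the 12 other libraries.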

How the data were processed

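Libraries of messenger RNA 3′ ends (QuantSeq, per the labels' protocols) were made by the authors into TPM values with HOMER, per the file headers, and deposited; each gene symbol has 1 transcript and length. Per the submitters' processing notes STAR, HOMER, Bowtie2 and hg38 were used, their roles not given; whether counting used strand is not given in the sources used here. TPM divides by length, whereas 3′ reads do not grow with it, so levels are compared between libraries and not between genes, and the 444 tested entries under 200 bases carry inflated TPM.

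Columns were matched to labels by name, and 62 per-sample columns were not used. TPM times length gave whole reads in 100% of the low values checked (within 0.1), hence the depths. Replicate pairs differed by more than sampling noise (chi-square per gene 2.41 to 6.04). The 12488 of 28035 genes with at least 1 TPM in at least 3 of the 24 libraries were fitted with limma 3.58.1 (R 4.3.3) on log2(TPM + 1), as group means over all 24 libraries, with trend and robust options, two-sided, and Benjamini-Hochberg adjustment over all genes; this scale understates the change of low genes. The fit was tested on simulated data with known changes in a small set of genes of the day 12 controls. That setting cannot test changes as wide as those found here, nor the choice of scale. Members and lists were chosen with earlier results of these data known. Genes were named by rule: the 12 highest and 12 lowest fold changes per comparison with day 3 and 6 each way for the steps and the difference, with a mean of at least 10 TPM and no overlap between days; up to 5 members per list by size of change; members that turned; and AhR, riboflavin and marker genes. Other members of a pathway or of a small count were named after their values were seen, and some genes are not reported here. Alternatives were pseudocounts of 0.1 and 5, a filter of 5 TPM, no filter, median scaling, quantile normalization, voom on recovered reads, controls alone, a replicate block and leaving out each library. Promoters are RefSeq's (GRCh38.p14). Figures were drawn with matplotlib 3.10.9.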

Additional observations from a re-analysis of the deposited data

Results flagged for a closer look

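The course from day 3 to day 12 differed between controls and B2_minus cells for 4707 genes by the test of the difference itself, and the genes below were the highest and lowest of these by the rule for naming. Each value is the control change minus the B2_minus change on the log2 scale. Among the positive ones PCK1 had 3.83, SNORA79 3.19, TNNI2 3.01, AFP 2.88, CCL20 2.75 and SLC5A3 2.70. Among the negative ones HAMP had −6.03, SPP1 −6.00, MT2A −4.65, TIMP1 −3.65, MT1A −3.53 and KRT19 −3.53. PCK1 averaged 36.0 ± 2.42 TPM in controls and 1.12 ± 0.183 TPM in B2_minus at day 12, TNNI2 24.8 ± 5.62 TPM and 3.60 ± 1.00 TPM, CCL20 555 ± 20.5 TPM and 107 ± 10.8 TPM, and SLC5A3 51.8 ± 10.1 TPM and 6.87 ± 0.457 TPM (SD, n = 3 each). HAMP averaged 0.92 ± 0.526 TPM in controls and 107 ± 12.4 TPM in B2_minus at day 12, TIMP1 2.74 ± 0.357 TPM and 61.4 ± 2.53 TPM, KRT19 4.35 ± 0.588 TPM and 61.2 ± 2.75 TPM and MT1A 6.31 ± 1.32 TPM and 66.1 ± 6.04 TPM. SNORA79 is a short entry, with 23.1 ± 8.36 TPM in controls and 1.26 ± 0.989 TPM in B2_minus at day 12, and 38.9 ± 5.93 TPM and 32.4 ± 4.07 TPM at day 3; its TPM is inflated by its length.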

How the results depend on the processing

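Scaling mattered most. With quantile normalization 3114 genes were higher and 3524 lower at day 9 against day 3, 3930 were higher at day 12 against day 3, and 2540 were higher and 2723 lower at day 9 against day 6. With median scaling these counts were 3210, 3504, 3883, 2597 and 2706. The other counts stayed within 1.5 times under the alternatives run. The replicate block gave 860 higher and 1705 lower at day 6 and 2514 and 5836 at day 12 against day 3. The labels name no source shared by libraries of the same number. Deviations from the group means in 18 same-numbered pairs of different days had a median correlation of 0.042, with 2 over 0.1. In 36 pairs with other numbers the median was −0.028, with 0 over 0.1. Leaving out 1 library gave 1994 to 2687 genes at day 6, 6857 to 7432 at day 9 and 7868 to 8393 at day 12 against day 3, 5256 to 5949 at day 9 against day 6, 3180 to 3889 at day 12 against day 9 and 4310 to 4783 for the difference from B2_minus. Of the 5180 values of named genes under alternatives, 2 changed sign with a value past the threshold before or after the change. These were RFK at day 12, at 0.184 with median scaling and 0.225 with quantile normalization. Changes of sign between values that did not pass were not counted. The causes were not tested. Depth limits genes under about 1 TPM, and with 3 libraries a day only the spread between libraries is known.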
